A study of Mus musculus and Homo sapiens with 4 samples.

Results

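The genes examined were 10 members of the S100 family in the VCaP libraries: S100A2, S100A4, S100A6, S100A7, S100A8, S100A9, S100A10, S100A11, S100A14 and S100A16. They were chosen by name from these same RPKM values, with their low levels in VCaP ERα already known, so their difference between the libraries is a description and carries no test. All 10 symbols were found, each on 1 of the 25932 entries. S100 proteins are small EF-hand proteins that mostly form dimers, bind calcium and then dock onto target proteins such as annexins and the cytoskeleton. Some of them are also released from cells and act on receptors, and the calgranulins S100A8 and S100A9 are best known from neutrophils and inflamed epithelium. Most of the human genes lie in 1 cluster on the long arm of chromosome 1, among genes of the epidermal barrier.

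VCaP is a prostate cancer cell line, and VCaP ERα is a line made from it that stably overexpresses oestrogen receptor alpha (ERα). By the labels each gave 1 library, from passages 5 to 6 and 4 to 5 respectively, grown in DMEM with fetal bovine serum, although the marker genes of the library labelled VCaP go against that label. The libraries are described as poly-A- and stranded, and were made from total RNA after ribosomal RNA was removed. No hormone treatment of the sequenced cells and no promoter of the transgene were found in the labels. Fibroblasts (MEFs) of wild-type and NEAT1 KO C57BL/6 embryos at embryonic day 13.5, passages 2 to 3 and again 1 library each, were used only for the mouse genes of the same names. Levels are RPKM, in which the reads of an entry are divided by its length in kilobases and by the mapped reads of the library, so that levels of different genes can be compared. A log2 ratio is the logarithm of the VCaP ERα level plus 1 over the VCaP level plus 1. With 1 library per condition there was no replicate error and no P-value, and neighbouring levels could not be separated by a spread.

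The library labelled VCaP did not show the genes of a prostate line. ERG, the transcription factor gene that a fusion with TMPRSS2 switches on in this line, was at 0.0764 RPKM there but at 104 RPKM in VCaP ERα. The 6 prostate luminal genes examined (KLK2, KLK3, TMPRSS2, HOXB13, ACPP and SLC45A3) ranged from 0.0264 to 8.18 RPKM in the library labelled VCaP, against 19.8 to 694 RPKM in VCaP ERα. ESR1, which encodes ERα, followed the labels with 15.7 against 209 RPKM. Whether this library came from VCaP cells was not tested, and an effect of ERα, a difference between cultures and a difference of cell line cannot be told apart in any value given here. The typical gene was also lower in VCaP ERα, with a median log2 ratio of -0.59 over the 9754 entries that reached 1 RPKM in both libraries. Of these entries 70.9% had a log2 ratio below 0, against 41.2% of all entries.

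On the deposited scale all 10 S100 genes were lower in VCaP ERα than in the library labelled VCaP, S100A2 changing sign with the scaling, and 9 of them had a log2 ratio below -2. The background share was 6.56% of all entries below -2, and 2.27% above 2, where none of the 10 genes lay. Since a log2 ratio below -2 requires more than 3 RPKM in the library labelled VCaP, the share was 18.6% among the 9127 entries that met this. S100A2, at 1.68 RPKM there, did not meet this. Of the 564 entries above 75 RPKM there, a level picked after the values were seen, 36.0% lay below -2. The 10 genes were selected on this contrast, so nothing is read from their count beside these shares. Their median log2 ratio was -4.52, beside 0 for all entries. After centring on the typical gene the median was -3.93 and 8 genes lay below -2, with S100A7 at -1.76, S100A4 just beyond -2 and S100A10 at -2.05. The split of all entries depended on the scaling, with 588 above 2 and 1701 below -2 as deposited, 1238 and 868 after centring, and 996 and 997 after quantile normalization. The median level of the 10 genes was 173 RPKM in the library labelled VCaP but 1.49 RPKM in VCaP ERα. Summed, they held 1.26% of all RPKM in the first library and 0.0867% in the second, 3380 against 171 RPKM.

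**Figure D1:**
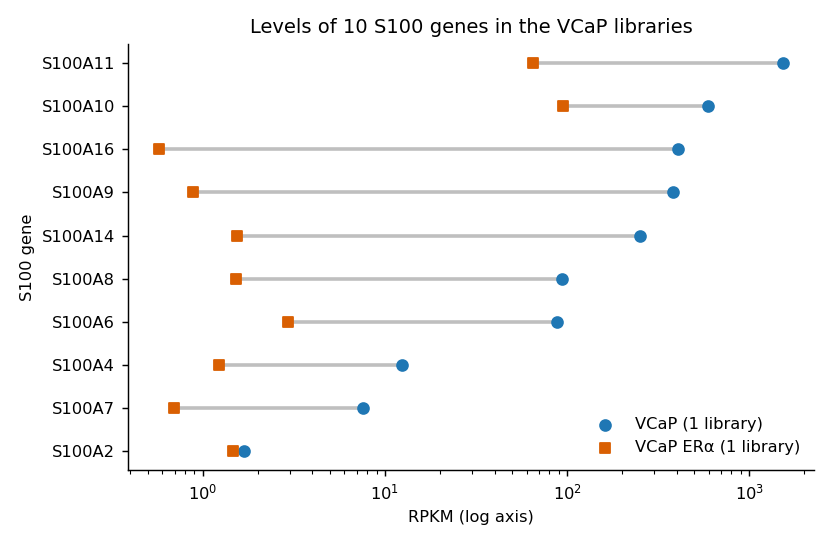
RPKM on a log axis of each of the 10 S100 genes in VCaP ERα and in the library labelled VCaP, 1 library each, with a line joining both values of a gene. S100A10 and S100A11 lie above 10 RPKM in VCaP ERα, the other 8 genes lie below 3 RPKM there, and S100A2 is low in both.

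S100A10 and S100A11 are annexin-binding members. S100A10, also called p11, forms a complex with annexin A2 and is unusual in having EF-hands that no longer bind calcium, while S100A11 binds annexin A1. They were the highest S100 genes in both libraries. S100A10 (chromosome 1, 150222010 to 150233338) was at 596 RPKM in the library labelled VCaP, against 94.6 RPKM in VCaP ERα (log2 ratio -2.64), a 6.30 times lower level. S100A11 (150271606 to 150276135) stood at rank 7 of all entries in the first library with 1540 RPKM, against 65.4 RPKM in VCaP ERα (log2 ratio -4.54). Their order was exchanged: S100A11 was 2.58 times the level of S100A10 in the library labelled VCaP but 0.691 times in VCaP ERα. In VCaP ERα they ranked 447 (S100A11) and 285 (S100A10) among all entries.

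Of the annexins, ANXA2 was lower in VCaP ERα and ANXA1 was higher. The ANXA2 gene on chromosome 15 was at 223 RPKM in the library labelled VCaP and at 9.30 RPKM in VCaP ERα (log2 ratio -4.44). Another entry named ANXA2, of 1310 bp on chromosome 9, had similar levels of 256 and 10.0 RPKM, so how reads were divided between these copies is uncertain. Having the higher mean RPKM, the chromosome 9 entry (log2 ratio -4.54) stands for ANXA2 in the list of binding partners. ANXA1 went from 6.84 to 30.8 RPKM (log2 ratio 2.02). AHNAK, the large scaffold protein recruited by the complex of S100A10 and annexin A2, was at 104 against 12.1 RPKM (log2 ratio -3.01).

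S100A8 and S100A9 form the heterodimer calprotectin, which binds calcium and zinc and signals through TLR4 and RAGE once outside the cell. Both were abundant in the library labelled VCaP and low in VCaP ERα. S100A9 (151596954 to 151600127) was at 381 against 0.883 RPKM, a 431 times lower level (log2 ratio -7.66). S100A8 (151629132 to 151630173) was at 94.4 against 1.51 RPKM, a 62.4 times lower level (log2 ratio -5.25). S100A9 was at 4.03 times the level of S100A8 in the library labelled VCaP but at 0.583 times in VCaP ERα. None of 8 myeloid genes (PTPRC, CD14, CD68, LYZ, ITGAM, CSF1R, CSF3R and MPO) reached 1 RPKM in either library. Their summed levels were 1.78 and 2.28 RPKM, and CSF3R and MPO were listed at 0 in the library labelled VCaP. The receptor gene TLR4 was listed at 0 against 0.134 RPKM, and AGER, which encodes RAGE, was at 0.225 against 1.03 RPKM. BSG, whose product is another receptor described for S100A9, was at 133 against 19.3 RPKM (log2 ratio -2.73).

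S100A14 and S100A16 are neighbouring genes of epithelial cells whose products are less well understood. S100A16 had the lowest log2 ratio of the 10 genes, and S100A14 the third lowest after S100A9. S100A16 (151845991 to 151852138) was at 409 RPKM in the library labelled VCaP and at 0.575 RPKM in VCaP ERα, a 711 times lower level. Its log2 ratio of -8.02 was the second lowest of all entries, after that of CALML5. S100A14 (151853356 to 151855414) was at 251 against 1.55 RPKM, a 162 times lower level (log2 ratio -6.62), at rank 18 from the lowest. S100A16 went from rank 68 by level in the library labelled VCaP to rank 14766 in VCaP ERα, where it was the lowest of the 10 genes. The ratio of S100A16 to S100A14 was 1.63 in the first library and 0.371 in the second.

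S100A6 and S100A4 are also near neighbours. S100A6, or calcyclin, binds CACYBP, a protein linked to ubiquitin ligases, and S100A4 binds the heavy chain of non-muscle myosin (MYH9) and is known for its part in cell motility. S100A6 (151773700 to 151775341) was at 88.1 RPKM in the library labelled VCaP and at 2.95 RPKM in VCaP ERα, a 29.9 times lower level (log2 ratio -4.50). S100A4 (151782719 to 151784906) was at 12.5 against 1.23 RPKM, a 10.1 times lower level (log2 ratio -2.59). Of their target genes, MYH9 was at 108 against 10.1 RPKM (log2 ratio -3.29). CACYBP was at 10.3 against 6.04 RPKM (log2 ratio -0.68), close to the typical gene, and its sign turned with the scaling, with -0.090 after centring and 0.12 after quantile normalization. S100A4 and S100A6 are known from fibroblasts as well, and the 6 fibroblast genes COL1A1, COL1A2, COL3A1, DCN, LUM and PDGFRB summed to 1.07 RPKM in the library labelled VCaP and to 2.15 RPKM in VCaP ERα. The end of S100A4 overlaps the entry AK307246 (a listed 0 and 0.487 RPKM), and S100A11 lies within the entry AK125884 (0.34 and 0.45 RPKM).

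S100A7 and S100A2 were the least abundant of the 10 genes in the library labelled VCaP. S100A7, or psoriasin, is an antimicrobial protein of the epidermis, and S100A2 is typical of basal epithelial cells. S100A7 (151696844 to 151699761) was at 7.62 against 0.692 RPKM (log2 ratio -2.35), the closest to the threshold of those below it. S100A2 (151800209 to 151804930), the only one of the 10 outside it, was at 1.68 against 1.46 RPKM (log2 ratio -0.12). Being below 3 RPKM in the library labelled VCaP, S100A2 could not have lain below -2. The sign for S100A2 depended on the scaling, with 0.47 after centring on the typical gene and 0.16 after quantile normalization. S100A7A, a near-identical copy of S100A7, was at 0.0227 against 0.601 RPKM and the related S100A7L2 at a listed 0 against 1.18 RPKM, so the division of reads among them is uncertain. Of 6 squamous and basal markers, KRT17 (38.9 against 0.774 RPKM), KRT6A (7.41 against 0.227 RPKM) and TP63 (3.79 against 0.0400 RPKM) had log2 ratios below -2. So did 18.6% of the entries above 3 RPKM in the library labelled VCaP. KRT5 (0.0259 against 0.623 RPKM), KRT14 (a listed 0 against 1.19 RPKM) and DSG3 (a listed 0 against 0.0134 RPKM) were at or near 0 in the library labelled VCaP. The sum over these 6 genes was 50.1 against 2.86 RPKM.

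Of the 5 luminal breast genes, TFF1 (log2 ratio -7.64), GATA3 (-5.81) and TRPS1 (-4.94) lay below -2, as did 18.6% of the entries above 3 RPKM in the library labelled VCaP. PGR (-1.92) and GREB1 (-1.19) did not. PGR was at 3.14 against 0.0954 RPKM, a 32.9 times lower level, where the scale leaves little room below -2. GREB1 was at a 2.57 times lower level. The median of the 5 genes was -4.94. They ranged from 3.14 to 1596 RPKM in the library labelled VCaP and summed to 1732 RPKM there, against 12.2 RPKM in VCaP ERα. The part of these genes in the S100 differences, and that of the keratins, was not tested.

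How many reads stand behind the low S100 levels of VCaP ERα could not be bounded. In entries spanning under 1500 bp, the product of RPKM and span in kb recurred most often at 0.097 and 0.145 in the library labelled VCaP (30 and 28 of the 481 such products above 0 and below 1) and at 0.111 and 0.095 in VCaP ERα (68 and 52 of 1460). Because more than 1 step recurred in each library, the number of reads was not settled. In neither library was the larger step a whole multiple of the smaller, so 1 read may add less than either. The levels in VCaP ERα were counted in the smaller step, over the whole span of each gene, which exceeds the length of its transcript. S100A8 came to at most 16.6 steps, S100A7 to 21.3, S100A4 to 28.4 and S100A9 to 29.5. S100A14 came to at most 33.6 steps, S100A16 to 37.2, S100A6 to 51.0 and S100A2 to 72.7. A step may hold more than 1 read, so these values are no upper bounds on reads. How precise the folds of these genes are was not settled. The 8757 entries that the library labelled VCaP listed at 0 had a median of 0.0939 RPKM in VCaP ERα and a 95th percentile of 1.67 RPKM. In VCaP ERα 7 of the 10 S100 genes lay at or below that percentile, the exceptions being S100A6, S100A10 and S100A11.

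**Figure D2:**
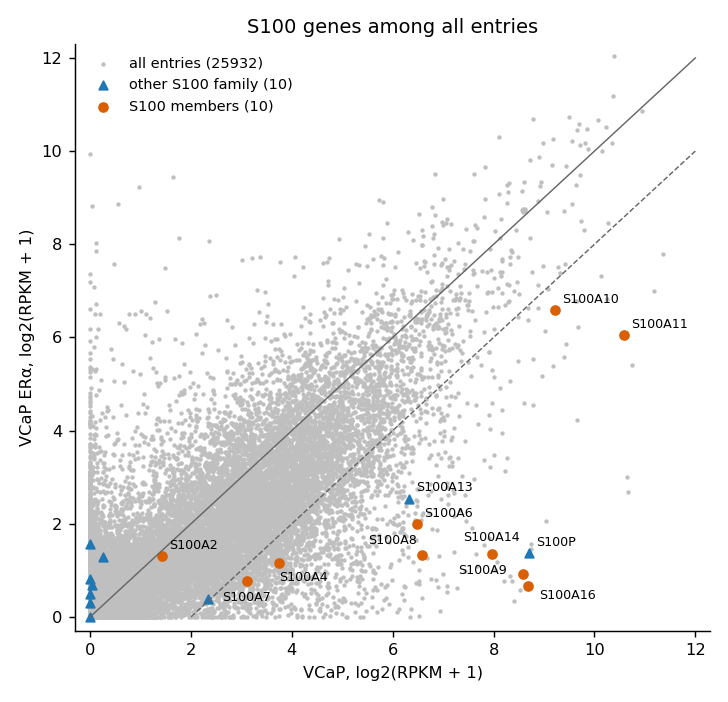
Level in the library labelled VCaP against that in VCaP ERα, both as log2(RPKM + 1), for all 25932 entries (grey), the 10 S100 genes and the other 10 genes of the family; the solid line marks equal levels and the dashed line a log2 ratio of -2. S100A16, S100A9, S100A14, S100A8 and S100A6 sit with S100P and S100A13 at the lower right, while S100A10 and S100A11 have higher levels in VCaP ERα.

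The order of the 10 genes by level is given for each library. In the library labelled VCaP it ran from S100A11 through S100A10, S100A16, S100A9, S100A14, S100A8, S100A6, S100A4 and S100A7 down to S100A2, over a 914-fold range. In VCaP ERα it ran from S100A10 through S100A11, S100A6, S100A14, S100A8, S100A2, S100A4, S100A9 and S100A7 down to S100A16, over a 165-fold range. Spearman's rho between the levels was 0.38 across the 10 genes, which share their libraries and are no replicates. The 7 genes at or below 1.67 RPKM in VCaP ERα are not set apart there from entries listed at 0 in the other library. Such entries need not be silent in VCaP ERα, so this level is no measured floor. The mutual order of the 7 genes and the rho leave differences between genes unresolved. The same holds for the VCaP ERα ratios of S100A9 to S100A8 and of S100A16 to S100A14.

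Of the other 10 genes of the family, S100P and S100A13 had a log2 ratio below -2, and none lay above 2. Over all entries the shares were 6.56% and 2.27%. Only 3 of these 10 genes reached 1 RPKM in the library labelled VCaP, so most could not lie below -2. S100P (chromosome 4, 6746467 to 6749798), an epithelial S100 protein outside the cluster, was at 413 against 1.57 RPKM, and its log2 ratio of -7.33 was the tenth lowest of all entries. S100A13 (chromosome 1, 151857900 to 151873192), which takes part in the release of FGF1, was at 78.6 against 4.81 RPKM (log2 ratio -3.78). S100A12, the third calgranulin, was at 4.06 against 0.305 RPKM (log2 ratio -1.96), just outside the threshold. S100A1, S100A5, S100B, S100G and S100Z were listed at 0 in the library labelled VCaP, and of these S100Z had the highest level in VCaP ERα, 1.97 RPKM. S100A3 was at 0.197 against 1.43 RPKM. The entry of S100A1 lies inside that of S100A13, and whether the counting used strand is not given in the sources used here.

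All 10 genes lie within 1633405 bp of chromosome 1, from 150222010 to 151855414. S100A10 and S100A11 stand at one end, followed by a gap of 1321 kb, and the other 8 genes lie within 258 kb at the far end. The interval holds 62 entries, 15 of S100 genes and 47 of others, chiefly of the epidermal differentiation complex, whose products build the cornified envelope of skin. Of the 15 S100 entries 9 had a log2 ratio below -2, and of the other 47 entries 2 did. Beside these counts stood 6.56% of all entries, and 18.6% of those above 3 RPKM in the library labelled VCaP. The 9 are genes selected on this contrast, so nothing is read from the difference in counts. Most of the other 47 entries could not have passed, since only 4 of the 47 reached 1 RPKM in either library and 33 were listed at 0 in the library labelled VCaP. SPRR3 (11.1 against 0.240 RPKM) and SPRR1B (5.34 against 0.0779 RPKM), small proline-rich proteins of the cornified envelope, were the ones below -2, with -3.29 and -2.56. They were also the only ones of the 47 above 3 RPKM in the library labelled VCaP. TCHHL1, a fused S100-type gene near S100A11, was at 2.39 against 0.0309 RPKM (log2 ratio -1.72). Involucrin (IVL), loricrin (LOR) and filaggrin (FLG), classical genes of the cornified layer, did not exceed 0.131 RPKM in either library. In the 500 kb on either side of the interval, 3 of 30 entries without an S100 gene (10.0%) lay below -2 and 1 above 2. Over all entries the shares were 6.56% and 2.27%. The median log2 ratio of these flanks was -0.58, close to the typical gene, and 0.015 after centring.

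**Figure D3:**
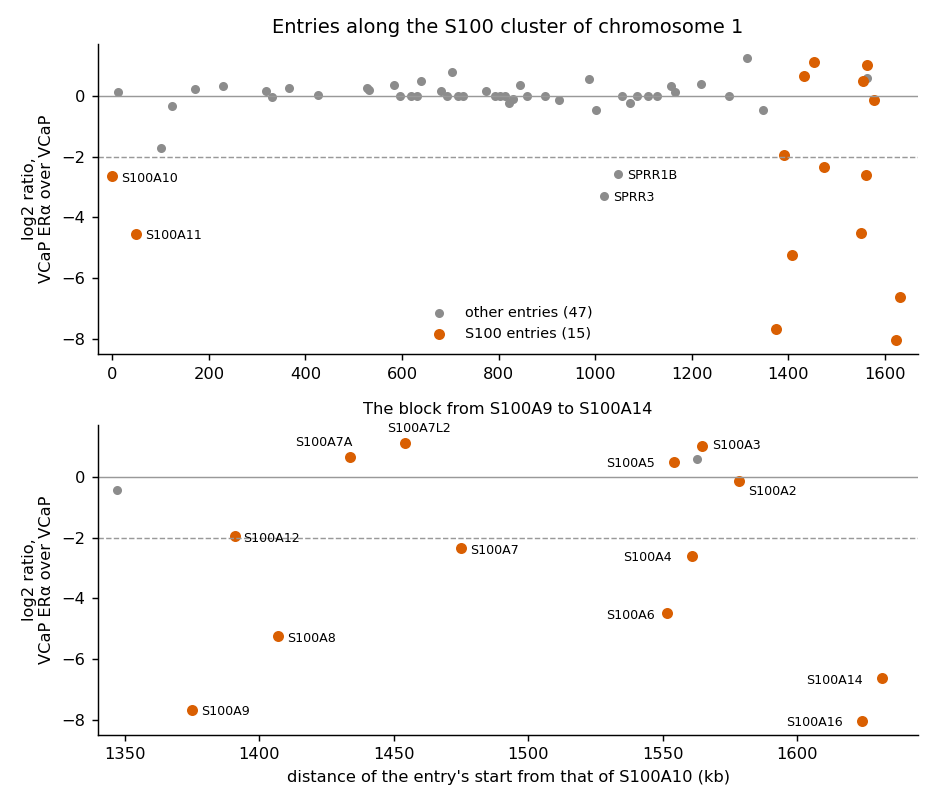
Log2 ratio of VCaP ERα over the library labelled VCaP for each entry of the chromosome 1 cluster, against the distance in kb of its start from that of S100A10; one panel shows all 62 entries and the other the block from S100A9 to S100A14. S100 entries reach down to -8.02, while most other entries, which were below 1 RPKM in both libraries, lie near 0. The dashed line marks -2.

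Within the distal block, entries with large and small differences lay side by side. S100A12 (log2 ratio -1.96) lies between S100A9 (-7.66) and S100A8 (-5.25), and S100A5 (0.49) between S100A6 (-4.50) and S100A4 (-2.59). S100A3 (1.02) and S100A2 (-0.12) come next, before S100A16 (-8.02) and S100A14 (-6.62). The S100 entries of the cluster that did not lie below -2 were at 4.06 RPKM or less in the library labelled VCaP. All of these but S100A12 were below 3 RPKM there and could not have lain below -2. For S100A12 the scale leaves little room below -2.

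Of 13 other EF-hand genes, 2 (15.4%) had a log2 ratio below -2, beside 6.56% of all entries. Only 9 of the 13 reached 1 RPKM in the library labelled VCaP, the 2 among them. Of all entries above 3 RPKM there, 18.6% lay below -2, and nothing is read from this count. Their median turned with the scaling, from -0.38 with 10 genes lower as deposited to 0.21 with 5 genes lower after centring. CALM2 and CALM3, which encode calmodulin, a general calcium sensor of the cell, had nearer levels in both libraries, CALM2 at 535 against 411 RPKM and CALM3 at 38.4 RPKM in both. CALML5, a calmodulin-like protein of differentiating skin, was at 336 against 0.258 RPKM and had the lowest log2 ratio of all entries, -8.07. CAPN1, the large subunit of a calcium-dependent protease, was at 51.8 against 6.52 RPKM (log2 ratio -2.81), and its partner CAPNS1 at 111 against 48.8 RPKM (log2 ratio -1.17). SRI, PDCD6, CAPN2 and CETN2 had log2 ratios from -1.46 to -0.32, and CALML3, CALB1, CALB2 and PVALB were at 0.405 RPKM or less in both libraries. Of the 12 binding partners and receptors, 4 (33.3%) lay below -2 (ANXA2, AHNAK, MYH9 and BSG) and 1 above 2 (ANXA1). Over all entries 6.56% lay below -2 and 2.27% above 2. The 4 genes below -2 were above 75 RPKM in the library labelled VCaP, where 36.0% of entries lay below -2. The median of the 12 was -0.95, but -0.36 after centring and after quantile normalization. ANXA6, ANXA11, COPS5 and SUGT1 had log2 ratios from -1.65 to -0.023.

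**Figure D4:**
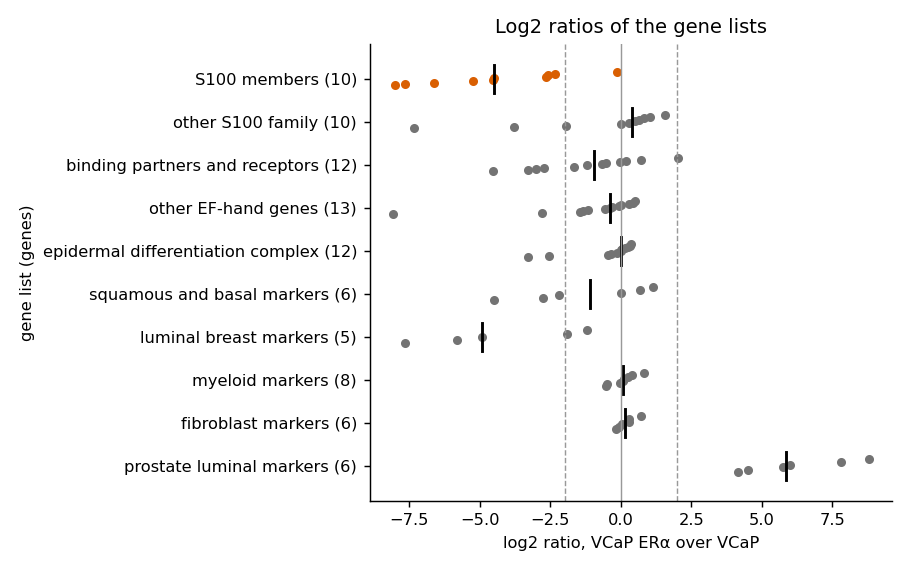
Log2 ratio of VCaP ERα over the library labelled VCaP for each gene (points) of 10 lists, with the number of genes in parentheses and the median as a black bar; dashed lines mark -2 and 2. The S100 genes (median -4.52) and the luminal breast genes (-4.94) lie to the left, and the prostate luminal genes (5.87) to the right. The myeloid (0.090) and fibroblast (0.15) genes lie near 0, where the scale holds genes of such low level. No myeloid gene reached 1 RPKM in either library, and of the fibroblast genes only COL1A1 did.

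The entries most like the S100 genes were found from the 9 genes below -2, whose median log2(RPKM + 1) was 7.98 in the library labelled VCaP but 1.33 in VCaP ERα. By Euclidean distance over these 2 libraries, the nearest 5 entries were PLK2 (266 against 1.24 RPKM), BMP7 (223 against 1.92 RPKM), FLNA (261 against 1.02 RPKM), SYTL2 (199 against 1.54 RPKM) and NQO1 (241 against 2.23 RPKM), at distances from 0.18 to 0.37. Over 2 libraries this likeness is one of level only.

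In the MEFs the targeted gene Neat1 was at 29.5 RPKM in wild type against 2.01 RPKM in NEAT1 KO (log2 ratio -3.34), as labelled. Of the 10 names, 9 were found on mouse entries and S100A7 was not, and of the 9 genes 5 were above 25 RPKM in both libraries and 4 under 2 RPKM in both. S100a6 was at 2065 RPKM in wild type against 1994 RPKM in KO, at ranks 8 and 11 of 23329 entries. S100a4 (249 against 206 RPKM), S100a11 (216 against 193 RPKM), S100a10 (211 against 187 RPKM) and S100a16 (31.3 against 39.6 RPKM) were also above 25 RPKM in both. S100a2 and S100a9 were listed at 0 in both, S100a14 at a listed 0 against 0.0292 RPKM, and S100a8 at 0.240 against 1.23 RPKM. Log2 ratios of KO over wild type ran from -0.28 (S100a4) to 0.85 (S100a8), and none of the 9 lay beyond 2 in either direction, against 0.223% of all entries above 2 and 0.0171% below -2. The MEF libraries were poly-A+ and were computed separately, so their levels are not set against those of the VCaP libraries.

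**Figure D5:**
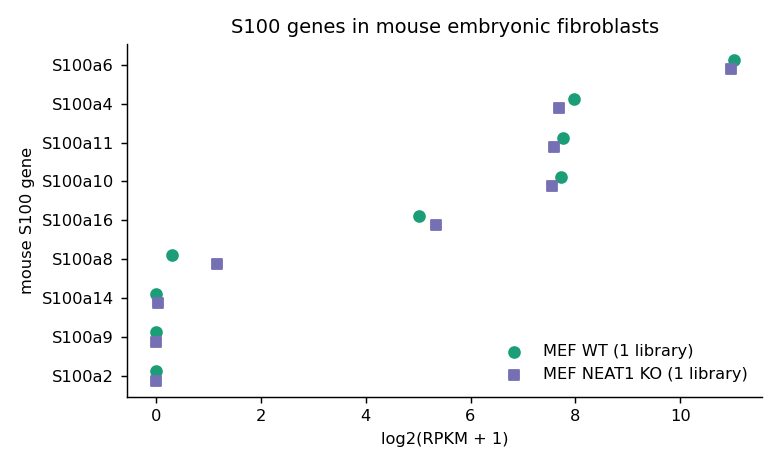
Level as log2(RPKM + 1) of the 9 mouse S100 genes in wild-type and NEAT1 KO MEFs, 1 library each. S100a6, S100a4, S100a11, S100a10 and S100a16 are above 25 RPKM in both, S100a2, S100a9 and S100a14 lie at or near 0 in both, and S100a8 is at 0.240 (wild type) against 1.23 RPKM (KO).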

How the data were processed

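Values of RPKM were computed and deposited by the authors, 1 value per entry and library, with UCSC gene identifiers, symbols and coordinates for the VCaP libraries and RefSeq identifiers for the MEF libraries. The submitters' processing notes name CASAVA 1.8 and the builds hg18 and mm10. The aligner and the counting are not given in the sources used here, and no scaling between libraries is stated. Coordinates are printed as the files give them. Human sequences were not used here.

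For each gene the entry of highest mean RPKM whose symbol field held the name was taken. The pseudocount was 1, entries beyond 2 and -2 were counted, and nothing was filtered. No test was made. The members and lists were chosen with earlier results of these data known. Named were the 10 members, the other S100 genes, ESR1, NEAT1 (on no VCaP entry), the lists of partners, EF-hand genes, epidermal neighbours and cell markers, and the 5 nearest entries. Some genes of these lists are not reported here. TCHHL1, S100A7L2, the overlapping entries and the flanks were added after values were seen. As alternatives, 0.1 replaced the pseudocount, entries below 1 RPKM in both libraries were left out, ratios were centred on the median of entries with 1 RPKM in both, libraries were quantile normalized, and another entry per symbol was taken. Scripts were tested on simulated data. Python 3.11.15, numpy 2.4.6, pandas 2.3.3, scipy 1.17.1 and matplotlib 3.10.9 were used.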

Additional observations from a re-analysis of the deposited data

How the results depend on the processing

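The number of S100 genes below -2 among the 10 was 9 and ranged from 8 to 9 over the alternatives; the gene lost after centring was S100A7. Their median log2 ratio was -4.52, and -3.93 after centring. Of the 20 family genes, 0 lay above 2, against 5 with a pseudocount of 0.1 and 1 after centring. Over all entries, the number below -2 was 1701, against 2958 with a pseudocount of 0.1, 868 after centring and 997 after quantile normalization, and the number above 2 was 588, against 4238, 1238 and 996. The log2 ratios of the 10 genes ran from -8.02 to -0.12, and from -9.24 to -0.19 with a pseudocount of 0.1. S100A2 alone changed sign, after centring and after quantile normalization. Each S100 symbol stood on 1 entry, so the choice of entry changed no S100 value. No paired analysis was possible because each condition has 1 library, and no library could be left out. The number of reads per library was not settled, which limits the folds of genes near 1 RPKM.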
